A study of Mus musculus with 9 samples.

Results

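Glycosaminoglycans are the long sulfated sugar chains that proteoglycans carry, and the module described here holds 43 genes of 26202 in the deposited table, those whose symbol is on a list of genes that build, sulfate or edit these chains. By role, 6 genes make the linker sugars, 6 polymerise chondroitin, 8 sulfate chondroitin or dermatan, 2 epimerise dermatan, 7 supply sulfate and sugar donors, 4 polymerise heparan, 8 modify heparan and 2 edit its sulfates. All 43 symbols were found in the table. The chains are built in the Golgi on serines of core proteins: a linker is laid down first, then either a chondroitin or a heparan chain is extended, and sulfotransferases decorate it with sulfate taken from the donor PAPS. In cartilage, the dense negative charge of chondroitin sulfate on aggrecan holds water and lets the tissue bear load, while heparan sulfate binds growth factors at the cell surface. In humans, loss of SLC26A2, PAPSS2, CHST3, SLC35D1 or XYLT1 function is known to cause skeletal dysplasia.

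The libraries came from ATDC5 cells, 1 mouse chondrogenic cell line used to follow cartilage differentiation in culture, with 3 libraries each labelled acetate, ethanol and control. All groups shared DMEM/F-12 with serum, to which insulin-transferrin-selenium, beta-glycerophosphate and ascorbate were added with the treatments. The series asks whether acetate, a product of ethanol breakdown, could carry part of what ethanol does to bone and to chondrocyte differentiation. The labels give no dose, no exposure time and no vehicle for the controls, and the treatment protocol attached to them describes livers of mice and HepG2 cells, which are other material. The labels do not state whether the replicates of a group were separate cultures, and p-values therefore measure the spread between these libraries, which may be technical.

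Levels are TMM-scaled CPM, read counts brought to a common library total after a scaling of library sizes (TMM), and library sizes recovered from the table were 28.7 to 41.9 M reads. Fold changes are log2 values of CPM plus 1, which understates changes of low genes, with standard errors from limma, a linear model with moderated variances. A gene is called when its adjusted p over all 12868 genes tested is under 0.05. The 8 chondrocyte markers summed to 5181 to 5831 CPM in acetate libraries, 4692 to 5932 CPM in ethanol libraries and 9985 to 13042 CPM in control libraries. Col2a1 made up most of these sums, at 4346 ± 411 CPM in acetate, 4008 ± 447 CPM in ethanol and 9089 ± 1320 CPM in control libraries. All 8 markers had negative fold changes in either treatment. In each, 5 were called lower, beside 0.497% of all genes with acetate and 2.45% with ethanol. Among the 5 called with acetate, the 4 lowest were Col9a1 (-1.83 ± 0.19), Col2a1 (-1.06 ± 0.15), Matn1 (-1.05 ± 0.17) and Comp (-0.97 ± 0.16), all cartilage matrix genes. Among the 5 called with ethanol they were Matn1 (-2.73 ± 0.17), Comp (-1.88 ± 0.16), Col9a1 (-1.36 ± 0.19) and Col2a1 (-1.18 ± 0.15). Markers not called are left out of this order, and the median over all 8 was -1.01 with acetate and -1.21 with ethanol. Matn1 (1.68 ± 0.17) and Comp (0.91 ± 0.16) were higher in acetate than in ethanol. The 5 osteoblast markers summed to 4690 to 7698 CPM in acetate, 4429 to 5237 CPM in ethanol and 7066 to 8270 CPM in control libraries. Of these, Bglap, which codes for osteocalcin, was lower with ethanol (-1.65 ± 0.19) and higher in acetate than in ethanol (2.19 ± 0.19). Bglap averaged 23.1, 4.26 and 15.7 CPM in acetate, ethanol and control libraries, a small part of the sums. The 5 markers had 2 positive and 3 negative fold changes with acetate (median -0.0020), and 1 positive and 4 negative with ethanol (median -0.54). Without acetate replicate 2, 3 were called lower and 1 higher with ethanol, beside 11.3% and 10.2% of all genes. All 5 adipocyte and all 5 muscle markers, 4 of 5 endothelial and 3 of 5 leukocyte markers were under 1 CPM in every library. The part of the marker shift in the results below was not tested, and in bulk libraries fewer cells of a type and less RNA per cell cannot be told apart. Acetate replicate 2 stood apart, with 1622 genes over 2 times from the mean of the other acetate libraries and a Pearson r of 0.81 between that deviation and GC content across 12741 genes, so results are also given without it.

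Of the 43 members, 41 averaged at least 1 CPM and were tested. Chsy3, a chondroitin synthase gene, was listed at 0 in all 9 libraries. Hs3st1, a heparan 3-O-sulfotransferase gene, was listed at 0 in 7 libraries, at 0.0240 CPM in ethanol replicate 2 and at 0.0348 CPM in control replicate 2, the worth of 1 read each. Per kilobase of exons, the other members spanned from 84.0 ± 9.37 CPM per kb for Ugdh to 0.186 ± 0.0341 CPM per kb for Sulf1 in control libraries (SD, n = 3). Among the genes that place sulfate on chondroitin, Chst11 (42.2 ± 3.84 CPM per kb in control) and Chst12 (34.4 ± 1.91) were the highest, and Chst7 (2.16 ± 0.279), Chst3 (1.11 ± 0.110) and Chst13 (0.758 ± 0.0686) the lowest. The chondroitin polymerases were led by Chsy1 (36.5 ± 2.96 CPM per kb), and the heparan polymerase Ext2 (21.4 ± 1.16) stood above Ext1 (10.6 ± 0.902).

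**Figure D1:**
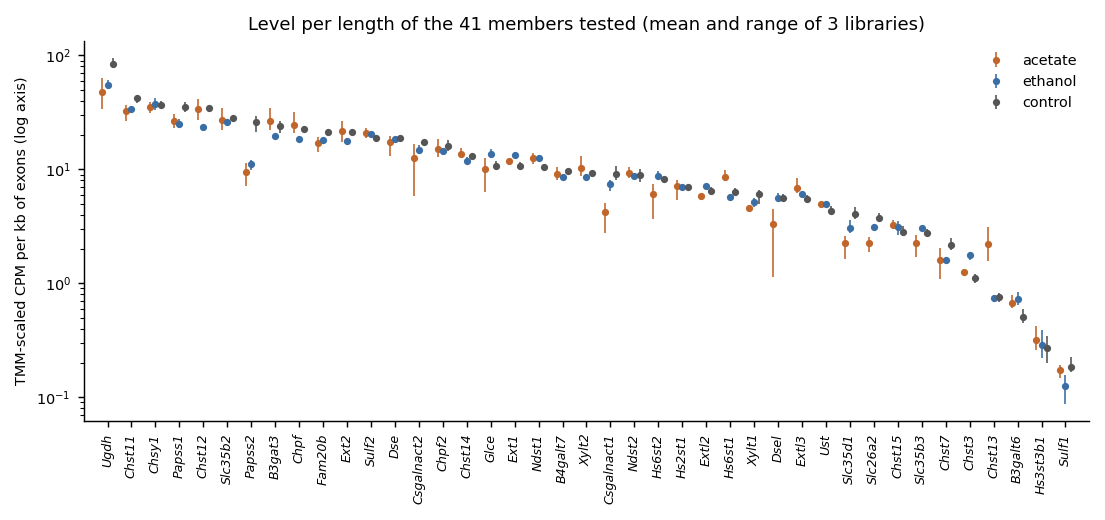
Level of the 41 tested members in TMM-scaled CPM per kb of exons on a log axis, ordered by the control mean. Points are means and bars the range of 3 libraries for acetate, ethanol and control; Ugdh is highest at 84.0 CPM per kb in control, and the acetate bars of Dsel and Csgalnact2 reach furthest below their own means on this axis.

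Acetate against control asks which of these genes differ once acetate is given. Papss2, a synthase of the sulfate donor PAPS, fell to 35.1 ± 7.84 CPM in acetate libraries, against 96.5 ± 15.9 CPM in control libraries (log2 fold change -1.44 ± 0.19, adjusted p = 0.0160). Chst13, a chondroitin 4-O-sulfotransferase gene, rose to 3.64 ± 1.33 CPM in acetate libraries, against 1.25 ± 0.113 CPM in control libraries (log2 fold change 1.00 ± 0.18, adjusted p = 0.0390). These were the 2 members called of 41, 1 in each direction, where 0.505% of all genes tested were called higher and 0.497% lower. The members had a median log2 fold change of -0.06 and 25 of 41 were negative, beside a median of -0.01 over all genes tested. With control replicate 2 left out the members' median was -0.11, and with control replicate 3 left out it was -0.02. Leaving out acetate replicate 2 turned the sign of 10 of 41, none of them called: Xylt2, B3gat3, Chsy1, Chpf, Chst14, Dse, Ndst2, Hs2st1, Glce and Sulf1. The acetate values lay wholly below the control values for 13 members (31.7%) and wholly above for 6 (14.6%), where 8.14% and 11.4% of all genes did so. Without acetate replicate 2, limma called 1 member higher and 5 lower, Papss2 with Csgalnact1, Slc26a2, Ugdh and Slc35d1, beside 1.95% and 1.53% of all genes. With the trend on GC content removed from each library, 8 members were called, 7 of them lower, beside 5.24% of all genes. These counts, of members and of all genes alike, changed when 1 library was left out, also an ethanol library, which enters only the shared spread. Whether this came from the library dropped or from the smaller number of libraries was not tested. Limma called 0 members without control replicate 1 (7 had an unadjusted p under 0.05), beside 0.0233% of all genes. Without control replicate 3 it called 0 members (10 such), beside 0% of all genes. Without acetate replicate 1 it called 4, beside 1.45%. It called 1 without acetate replicate 3 (0.256% of all genes), without control replicate 2 (0.210%) or without any 1 ethanol library (0.404% to 0.435%).

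Ethanol against control asks the same of ethanol. Papss2 fell here too, to 41.7 ± 4.52 CPM in ethanol libraries (log2 fold change -1.18 ± 0.19, adjusted p = 0.0114). Chst3, a chondroitin 6-O-sulfotransferase gene, rose to 11.6 ± 1.05 CPM in ethanol libraries, against 7.19 ± 0.715 CPM in control libraries (log2 fold change 0.62 ± 0.12, adjusted p = 0.0246). These were again the 2 members called of 41, 1 in each direction, where 1.48% of all genes were called higher and 2.45% lower. The median of the members was -0.13 with 27 of 41 negative, beside a median of -0.00084 over all genes. The ethanol values lay wholly below the control values for 15 members (36.6%) and wholly above for 5 (12.2%), where 23.3% and 20.1% of all genes did so. With replicate number as a block, which the main fit leaves out, 3 members were called, with Papss1 added, beside 8.35% of all genes. Without acetate replicate 2, which enters the shared spread, limma called 4 members higher (9.76%) and 7 lower (17.1%), where 10.2% and 11.3% of all genes were. With the GC trend removed 9 members were called, beside 15.8% of all genes. Without ethanol replicate 2, control replicate 1 or control replicate 3, limma called 0 members (6, 6 and 8 had an unadjusted p under 0.05). Over all genes 0.847%, 0.762% and 1.41% were called in those fits. Limma called 1 member without ethanol replicate 3 (1.24% of all genes) or without control replicate 2 (1.55%). The comparisons of acetate and of ethanol with control share the 3 control libraries, so their values are given side by side and not as independent results.

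Acetate against ethanol sets both treatments against each other directly. Chst13 was higher in acetate libraries than in ethanol libraries, where it averaged 1.23 ± 0.0913 CPM (log2 fold change 1.02 ± 0.18, adjusted p = 0.0160). Hs6st1, a heparan 6-O-sulfotransferase gene, averaged 47.9 ± 5.99 CPM in acetate libraries and 31.5 ± 2.33 CPM in ethanol libraries (log2 fold change 0.58 ± 0.13, adjusted p = 0.0366). Both of the 2 members called were higher in acetate, where 2.84% of all genes were called higher and 0.886% lower. The median of the members was -0.01, as over all genes, and 20 of 41 were positive. Leaving out acetate replicate 2 turned the sign of 10 of 41 here too, none of them called. The acetate values lay wholly above the ethanol values for 5 members (12.2%) and wholly below for 9 (22.0%), where 15.3% and 12.5% of all genes did so. With replicate number as a block, 5 members were called, with Csgalnact1, Chst3 and Slc26a2 lower in acetate, beside 6.4% of all genes. Without acetate replicate 2, 2 were higher and 2 lower, beside 5.72% and 2.89% of all genes, and with the GC trend removed 6 were called, beside 10.5%. Limma called 4 members without acetate replicate 3 (5.48% of all genes) and 1 without any 1 control library (2.18% to 2.90%). Without any 1 ethanol library it called 0 (7 at an unadjusted p under 0.05 each time), beside 0.800% to 1.39% of all genes.

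**Figure D2:**
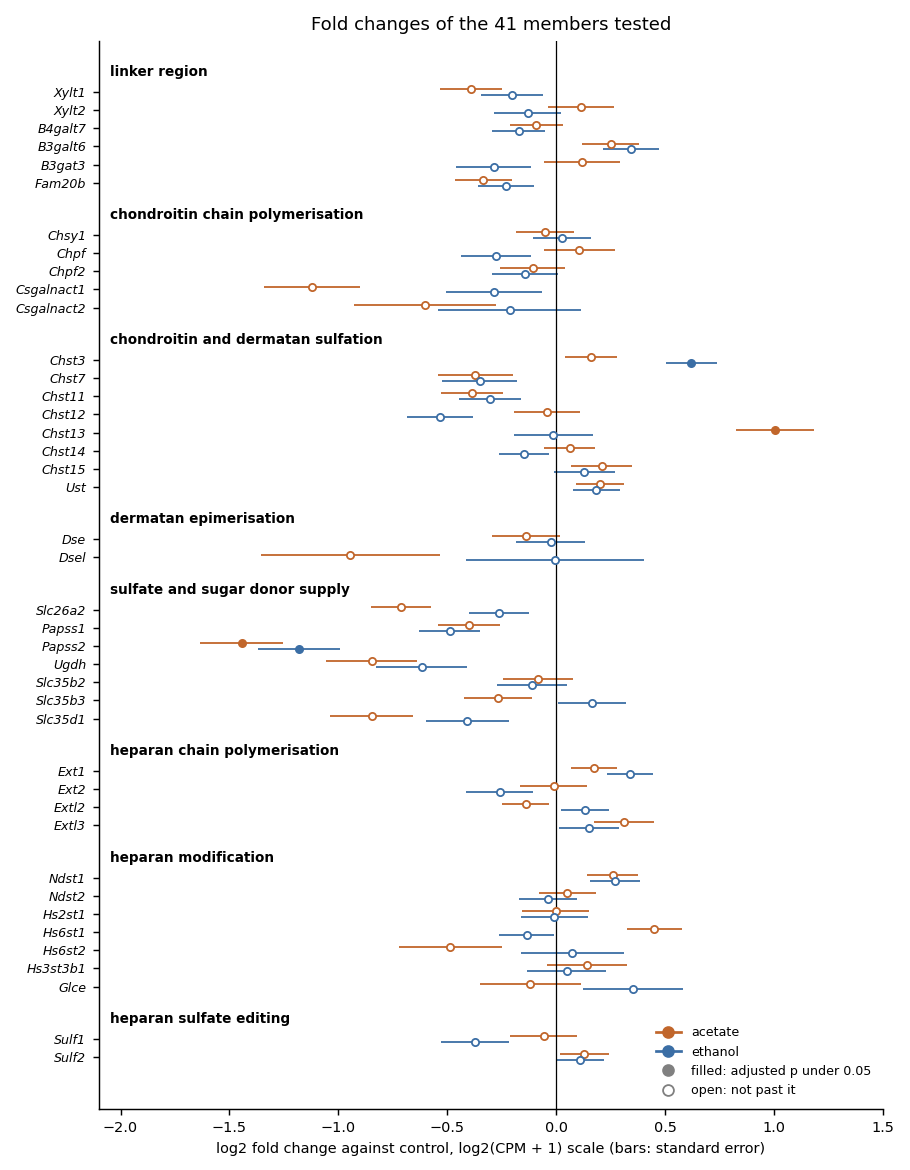
Log2 fold change of the 41 tested members, grouped by role, for acetate (orange) and ethanol (blue) against the same 3 control libraries. Points are limma estimates, bars their standard errors, and filled points had an adjusted p under 0.05; Papss2 is lowest in both comparisons, Chst13 highest for acetate and Chst3 highest for ethanol.

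The donor supply genes feed sulfate and activated sugars to all chains. All 7 had negative fold changes with acetate (median -0.71) and 6 of 7 with ethanol (median -0.41), with 1 called in each comparison, Papss2. Without acetate replicate 2, 4 of 7 were called lower in each comparison, beside 1.53% of all genes called lower with acetate and 11.3% with ethanol, and the median with acetate was -0.59. Limma called no donor supply gene between acetate and ethanol (3 at an unadjusted p under 0.05), where the median was -0.26.

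Papss2 (chromosome 19, 32595790 to 32667187, plus strand, GRCm38) codes for the PAPS synthase that growth plate cartilage depends on. Its level was 42.0, 26.6 and 36.7 CPM in acetate replicates 1 to 3, 44.2, 36.5 and 44.5 CPM in ethanol replicates and 100.4, 78.9 and 110.1 CPM in control replicates. Every treated library lay below every control library, and the acetate and ethanol ranges overlapped. The mean ratio to control was 0.364 for acetate and 0.433 for ethanol, and the direct difference between the treatments was not called (log2 fold change -0.26 ± 0.19, adjusted p = 0.405). The acetate call was lost without control replicate 1 (adjusted p = 0.105) or 3 (0.0771) and with only the 6 libraries compared in the fit (0.0904), with a range of 9.06e-05 to 0.105 over 16 alternatives. The ethanol call was lost without ethanol replicate 2 (0.0691) or control replicate 1 (0.0718) or 3 (0.0554), with a range of 8.09e-05 to 0.0718.

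Papss1, the more widely expressed PAPS synthase gene, had 93.9, 80.6 and 70.2 CPM in acetate, 84.8, 74.1 and 70.2 CPM in ethanol and 119, 98.1 and 105 CPM in control replicates. Both treated groups lay below the controls (log2 fold change -0.40 ± 0.14, adjusted p = 0.237, for acetate; log2 fold change -0.49 ± 0.14, adjusted p = 0.0948, for ethanol). The ethanol difference was called under the replicate block (adjusted p = 0.0299) and when acetate replicate 2 was dropped (0.0193), in a range of 0.000728 to 0.382. Per length, Papss2 stood at 27.1% to 42.8% of Papss1 in acetate libraries, 40.5% to 52.0% in ethanol libraries and 66.0% to 85.6% in control libraries, a ratio chosen after its values were seen and given without a test. Papss1 was thus the higher of the pair per length of merged exons in every library. In CPM, Papss2 was the higher in control replicate 3 (110.1 against 105 CPM).

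Slc26a2, the sulfate importer of the cell membrane, had 29.3, 23.2 and 31.8 CPM in acetate, 37.1, 37.0 and 41.2 CPM in ethanol and 45.5, 42.6 and 51.1 CPM in control replicates. The 3 groups did not overlap, with acetate lowest and control highest. Its fold change just missed the threshold with acetate (log2 fold change -0.71 ± 0.14, adjusted p = 0.0511) and missed it with ethanol (log2 fold change -0.26 ± 0.14, adjusted p = 0.341). With acetate replicate 2 left out, the acetate difference was -0.59 ± 0.10 and called (adjusted p = 0.0140; 0.00427 to 0.233 over its alternatives). Between the treatments it was -0.45 ± 0.14, and was called under the replicate block (adjusted p = 0.0479; range 0.0369 to 0.352) and not in the main model (0.116).

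Ugdh makes UDP-glucuronic acid, the sugar donor that both chondroitin and heparan chains need. It had 429, 228 and 315 CPM in acetate, 407, 356 and 343 CPM in ethanol and 639.6, 524 and 538 CPM in control replicates. All treated libraries lay below the controls, and acetate replicate 2 was the lowest of the 9 (log2 fold change -0.85 ± 0.21, adjusted p = 0.102, for acetate; log2 fold change -0.62 ± 0.21, adjusted p = 0.149, for ethanol). Without that library both differences were called, at -0.62 ± 0.14 for acetate (adjusted p = 0.0430; 0.000305 to 0.398 over its alternatives) and -0.62 ± 0.13 for ethanol (0.00850; 0.000175 to 0.484).

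Slc35d1 carries UDP-glucuronic acid and UDP-N-acetylgalactosamine into the endoplasmic reticulum. It had 22.1, 13.8 and 21.7 CPM in acetate, 23.5, 24.2 and 30.4 CPM in ethanol and 33.6, 31.3 and 39.6 CPM in control replicates, 3 ranges that did not overlap. The fold changes were not called with all libraries (log2 fold change -0.85 ± 0.19, adjusted p = 0.0790, for acetate; log2 fold change -0.41 ± 0.19, adjusted p = 0.286, for ethanol). Both were called once acetate replicate 2 was left out, at -0.64 ± 0.13 for acetate (adjusted p = 0.0273; 0.000749 to 0.30 over its alternatives) and -0.41 ± 0.12 for ethanol (0.0327; 0.00206 to 0.574). Of the carriers that bring PAPS into the Golgi, Slc35b2 had log2 fold changes of -0.08 with acetate and -0.11 with ethanol. Slc35b3, the other carrier, had 15.4, 9.90 and 14.3 CPM in acetate, 18.0, 17.4 and 18.2 CPM in ethanol and 15.2, 14.9 and 17.5 CPM in control replicates. Its acetate values lay below its ethanol values, a difference called with the GC trend removed (-0.37, adjusted p = 0.0420; 0.0121 to 0.397 over its alternatives) and not otherwise in the main model (log2 fold change -0.43 ± 0.16, adjusted p = 0.170).

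**Figure D3:**
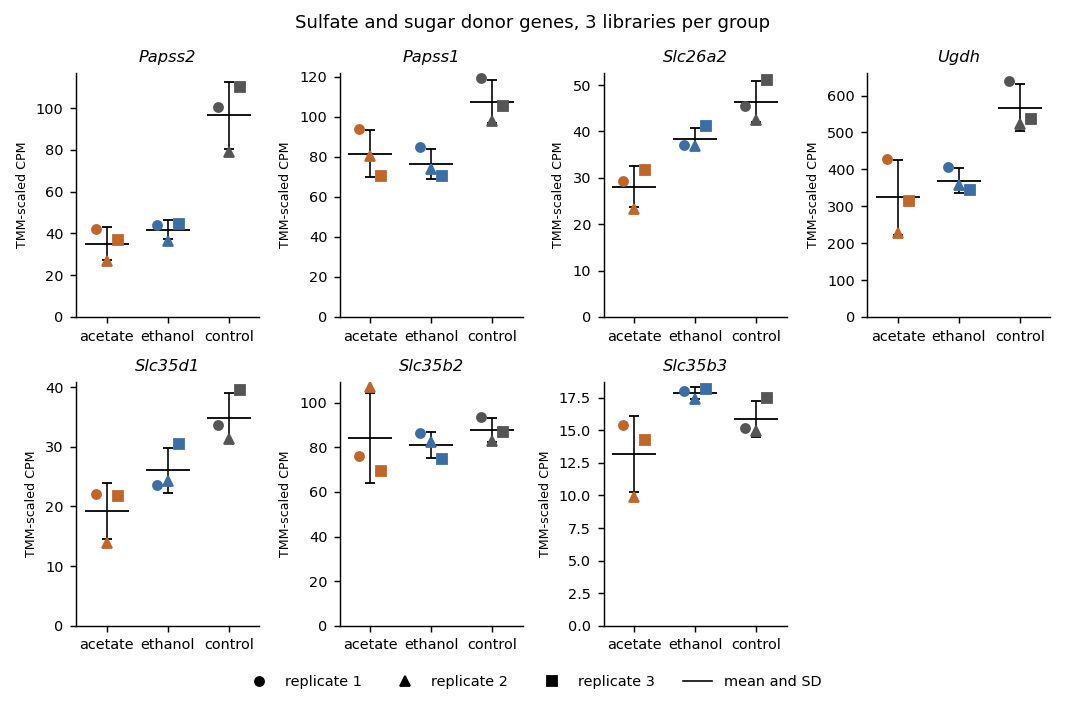
TMM-scaled CPM of the 7 donor supply genes in acetate, ethanol and control libraries, on linear axes from 0. Symbols mark replicates 1 to 3, and black lines the mean and SD; for Papss2, Papss1, Slc26a2, Ugdh and Slc35d1 every acetate and ethanol value lies below every control value.

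The linker genes lay down the sugars that join any chain to its core protein, and none of the 6 was called by limma in any comparison with all libraries, where 2 with acetate and 1 with ethanol had an unadjusted p under 0.05. Xylt1, the xylosyltransferase that starts the linker, had 42.9, 47.3 and 41.5 CPM in acetate, 51.1, 45.0 and 54.5 CPM in ethanol and 63.4, 47.8 and 63.7 CPM in control replicates. The acetate values lay below the controls by a small margin and the ethanol values overlapped them (log2 fold change -0.39 ± 0.14, adjusted p = 0.249, for acetate; log2 fold change -0.20 ± 0.14, adjusted p = 0.490, for ethanol). Fam20b, the kinase that phosphorylates the linker xylose, lay below the controls in both treatments (-0.33 for acetate and -0.23 for ethanol), and B3galt6, which adds a galactose, above them (0.25 and 0.34). Xylt2, the other xylosyltransferase, B4galt7, which adds the inner galactose, and B3gat3, which adds the glucuronic acid, had fold changes of -0.09 to 0.12 with acetate and -0.29 to -0.13 with ethanol.

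Of the 5 chondroitin polymerisation genes tested, limma called none with all libraries (1 had an unadjusted p under 0.05 with acetate and 0 with ethanol). Csgalnact1, which adds the N-acetylgalactosamine that starts a chondroitin chain, had the largest fold change of these with acetate, at 24.7, 14.1 and 25.7 CPM in acetate, 40.3, 32.9 and 40.9 CPM in ethanol and 45.2, 40.8 and 54.1 CPM in control replicates. Every acetate library lay below every library of both other groups, and ethanol overlapped control. The acetate difference missed the threshold narrowly (log2 fold change -1.12 ± 0.22, adjusted p = 0.0541), while ethanol stood at -0.29 ± 0.22. The difference was called, once acetate replicate 2 was left out, against control (-0.85 ± 0.13, adjusted p = 0.00894; 0.00102 to 0.228 over its alternatives) and against ethanol (-0.57 ± 0.13, adjusted p = 0.0252; 0.00198 to 0.248). Against ethanol it was -0.83 ± 0.22 in the main model (adjusted p = 0.0737) and called under the replicate block (0.0206).

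Its relative Csgalnact2 had 90.4, 31.4 and 81.8 CPM in acetate, 74.8, 79.9 and 88.6 CPM in ethanol and 93.5, 96.7 and 91.8 CPM in control replicates. Acetate replicate 2 lay far under the other 8 libraries, and only Dsel is poorer in GC among the members. The ethanol difference, -0.21 ± 0.33, was called with the GC trend removed (-0.24, adjusted p = 0.0387; 0.0150 to 0.936 over its alternatives). Chsy1, the synthase that extends the chain, had 149.9, 130.1 and 163 CPM in acetate, 139, 152 and 176 CPM in ethanol and 151, 141 and 166 CPM in control replicates. Its groups overlapped throughout, with a fold change of -0.05 ± 0.13 for acetate and 0.03 ± 0.13 for ethanol.

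Chpf, a partner in chain extension, had 79.7, 123 and 83.6 CPM in acetate, 67.7, 75.6 and 71.0 CPM in ethanol and 84.7, 83.3 and 92.4 CPM in control replicates. The ethanol values lay below the controls (log2 fold change -0.28 ± 0.16, adjusted p = 0.397), a difference called without acetate replicate 2 (0.0260; 0.00651 to 0.681 over its alternatives). Chpf2, a related partner, had 72.3, 103 and 76.4 CPM in acetate, 78.5, 84.8 and 79.3 CPM in ethanol and 87.6, 81.0 and 100.4 CPM in control replicates, and its groups overlapped. It was called lower with acetate when the GC trend was removed (-0.31, adjusted p = 0.0383; 0.0125 to 0.968 over its alternatives), against -0.11 ± 0.15 with the trend kept. Of the exonic bases of Chpf2, 44.1% lie opposite exons of Smarcd3, and the strand used in counting was not given in the sources used here, so reads of this pair may not be separated.

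Chondroitin and dermatan sulfation genes split in direction: 5 of 8 were positive with acetate and 3 of 8 with ethanol, with 1 called in each. Chst13 (chromosome 6, 90308349 to 90325185, minus strand) had 2.57, 5.12 and 3.22 CPM in acetate, 1.13, 1.25 and 1.32 CPM in ethanol and 1.13, 1.29 and 1.35 CPM in control replicates. The acetate values lay above all others and varied most among themselves, and ethanol overlapped control. The ratio of means to control was 2.90 for acetate and 0.984 for ethanol, and the gene rests on 37 to 176 recovered reads per library. Without acetate replicate 2, the highest library, the acetate difference was 0.79 ± 0.12 and stayed called (adjusted p = 0.0101). The call against control was lost without acetate replicate 3 (0.0919), without ethanol replicate 1, 2 or 3 (0.0809, 0.0864 and 0.0811), without control replicate 1, 2 or 3 (0.204, 0.141 and 0.125), with no filter on low genes (0.0635) and with only the 6 libraries compared (0.188), and ranged from 0.00200 to 0.204 over the alternatives. The call against ethanol was lost without ethanol replicate 1, 2 or 3 (0.0743, 0.0772 and 0.0636) and with only the 6 libraries compared (0.0803), with a range of 0.00133 to 0.0803.

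Chst3 (chromosome 10, 60181532 to 60219260, minus strand) had 7.55, 8.41 and 8.48 CPM in acetate, 10.4, 12.2 and 12.2 CPM in ethanol and 7.20, 6.47 and 7.90 CPM in control replicates. Ethanol lay above both other groups, and acetate overlapped control (log2 fold change 0.16 ± 0.12, adjusted p = 0.482). The ethanol call was lost without ethanol replicate 2 or 3 (adjusted p = 0.141 and 0.110) and without control replicate 1, 2 or 3 (0.123, 0.10 and 0.0521), with a range of 0.00143 to 0.141 over the alternatives. Acetate against ethanol stood at -0.46 ± 0.12 (adjusted p = 0.0701) and was called under the replicate block (0.0483) and when acetate replicate 2 was dropped (0.0337), with a range of 0.00264 to 0.264. Chst7, the other 6-O-sulfotransferase gene, had 3.66, 4.51 and 2.41 CPM in acetate, 3.35, 3.73 and 3.44 CPM in ethanol and 5.47, 4.35 and 4.47 CPM in control replicates. Ethanol lay below control and acetate overlapped it, with -0.37 ± 0.17 for acetate and -0.35 ± 0.17 for ethanol. The acetate difference was called with the GC trend removed (-0.57, adjusted p = 0.0456; 0.0133 to 0.670 over its alternatives).

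Chst11, the main 4-O-sulfotransferase gene of cartilage, had 204, 146 and 189 CPM in acetate, 192, 180.4 and 192 CPM in ethanol and 248, 209 and 243 CPM in control replicates. Both treated groups lay below the controls (log2 fold change -0.38 ± 0.14, adjusted p = 0.262, for acetate; log2 fold change -0.31 ± 0.14, adjusted p = 0.284, for ethanol). The ethanol difference was called without acetate replicate 2 (adjusted p = 0.0272; 0.00604 to 0.673 over its alternatives). Chst12, which also sulfates position 4, had 77.7, 98.7 and 63.5 CPM in acetate, 55.3, 55.9 and 56.1 CPM in ethanol and 84.5, 76.1 and 83.0 CPM in control replicates. Ethanol lay below both other groups with little spread (log2 fold change -0.53 ± 0.15, adjusted p = 0.0918), while acetate overlapped control (-0.04 ± 0.15). The ethanol difference was called without acetate replicate 2 (adjusted p = 0.00273; 0.000873 to 0.333 over its alternatives).

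Set against Chst11 per length in the same library, Chst3 stood at 3.14% to 4.91% in acetate, 4.60% to 5.76% in ethanol and 2.47% to 2.76% in control libraries. Chst13 stood at 4.20% to 11.8% of Chst11 in acetate, 1.97% to 2.32% in ethanol and 1.52% to 2.06% in control libraries. Both ratios were picked after the values were seen and are given without a test, and both rarer transcripts remained well under Chst11 in every library. The remaining sulfotransferase genes were Chst14, which sulfates dermatan, Chst15, which adds a further sulfate to already sulfated chondroitin, and Ust, which sulfates the uronic acid. Log2 fold changes were 0.06 with acetate and -0.15 with ethanol for Chst14, 0.21 and 0.13 for Chst15, and 0.20 and 0.18 for Ust, and none was called. Of the exonic bases of Chst15, 17.9% lie opposite exons of Gm10584.

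Dermatan epimerisation turns glucuronic into iduronic acid. Of its 2 genes, Dse had fold changes of -0.14 with acetate and -0.03 with ethanol. Dsel had 25.6, 6.55 and 25.3 CPM in acetate, 29.8, 31.6 and 36.0 CPM in ethanol and 30.6, 32.4 and 34.7 CPM in control replicates. Acetate replicate 2 lay far under the other 8 libraries, and Dsel has the lowest GC content of the module (40.8%). The acetate difference was -0.94 ± 0.41 with all libraries (adjusted p = 0.331) and -0.34 without that library (adjusted p = 0.102; 0.0134 to 0.654 over its alternatives). Against ethanol it was called with the GC trend removed (-0.44, adjusted p = 0.0470; 0.0115 to 0.490 over its alternatives).

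**Figure D4:**
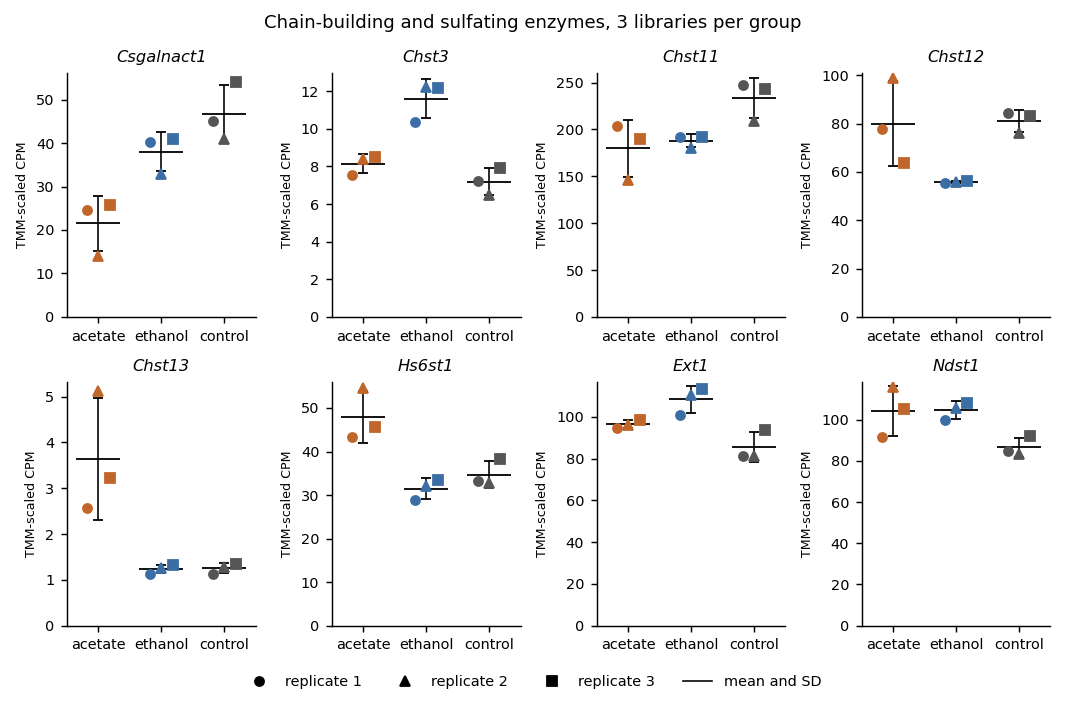
TMM-scaled CPM of 8 chain-building and sulfating genes in acetate, ethanol and control libraries, on linear axes from 0, with symbols for replicates 1 to 3 and black lines for mean and SD. Chst13 and Hs6st1 are highest in acetate, Chst3 and Ext1 highest in ethanol, Chst12 lowest in ethanol and Csgalnact1 lowest in acetate.

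Of the 4 heparan polymerases, 7 modifying enzymes and 2 sulfatases tested, limma called none against control with all libraries. An unadjusted p under 0.05 stood for 1, 1 and 0 of them with acetate and for 1 of each group with ethanol. Ext1, a chain polymerase, had 94.6, 96.1 and 98.6 CPM in acetate, 101, 111 and 114 CPM in ethanol and 81.3, 81.3 and 93.9 CPM in control replicates. Ethanol lay highest and control lowest, with no overlap between the 3 groups. The ethanol difference missed the threshold (log2 fold change 0.34 ± 0.11, adjusted p = 0.119) and was called without acetate replicate 2 (0.0172; 0.0151 to 0.436 over its alternatives), while acetate stood at 0.17 ± 0.11, or 0.45 with the GC trend removed (adjusted p = 0.226; 0.122 to 0.684 over its alternatives). Its partner Ext2 had -0.01 with acetate and -0.26 with ethanol, where ethanol lay below control. Extl3, which starts the heparan chain, had 0.31 with acetate and 0.15 with ethanol, and Extl2, a related transferase, had -0.14 and 0.13.

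Among the modifying enzymes, Hs6st1 (chromosome 1, 36068400 to 36106446, plus strand) had 43.4, 54.7 and 45.6 CPM in acetate, 29.0, 32.0 and 33.5 CPM in ethanol and 33.2, 32.7 and 38.2 CPM in control replicates. Acetate lay above both other groups, which overlapped. Against control the difference was not called (log2 fold change 0.45 ± 0.13, adjusted p = 0.146). The call against ethanol was lost without ethanol replicate 1, 2 or 3 (adjusted p = 0.152, 0.144 and 0.104), without control replicate 1, 2 or 3 (0.0774, 0.0693 and 0.0527) and with only the 6 libraries compared (0.132), with a range of 0.00320 to 0.152 over the alternatives. Its relative Hs6st2 stood at -0.49 with acetate against control (adjusted p = 0.375) and at -0.16 without acetate replicate 2 (adjusted p = 0.394; 0.0482 to 0.670 over its alternatives), with acetate replicate 2 at 28.6 CPM and acetate replicates 1 and 3 at 58.2 and 56.5 CPM.

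Ndst1, which removes acetyl groups and places N-sulfates, had 91.5, 116 and 105 CPM in acetate, 99.8, 106 and 108 CPM in ethanol and 84.8, 83.1 and 92.0 CPM in control replicates. The ethanol values lay above the controls, and acetate overlapped them (log2 fold change 0.26 ± 0.12, adjusted p = 0.344, for acetate; log2 fold change 0.27 ± 0.12, adjusted p = 0.249, for ethanol). The ethanol difference was called once acetate replicate 2 was left out (adjusted p = 0.0361; 0.00567 to 0.598 over its alternatives). Glce, the epimerase of heparan, had 77.8, 43.3 and 86.6 CPM in acetate, 84.9, 90.8 and 103 CPM in ethanol and 68.8, 68.0 and 80.4 CPM in control replicates. Ethanol lay above control (log2 fold change 0.35 ± 0.23, adjusted p = 0.458), and the difference was called without acetate replicate 2 (0.0278; 0.0219 to 0.805 over its alternatives), the library in which Glce was lowest. Ndst2, Hs2st1, the 2-O-sulfotransferase gene, and Hs3st3b1, a 3-O-sulfotransferase gene, had fold changes of -0.0021 to 0.14 with acetate and -0.04 to 0.05 with ethanol.

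The sulfatases Sulf1 and Sulf2 trim 6-O-sulfates from finished heparan chains outside the cell. Sulf1 had 2.16, 1.66 and 2.09 CPM in acetate, 1.45, 0.986 and 1.78 CPM in ethanol and 1.87, 1.88 and 2.54 CPM in control replicates. Ethanol lay below control without a call (log2 fold change -0.37 ± 0.16, adjusted p = 0.236), and acetate overlapped control (-0.06 ± 0.16). Sulf2, the far more abundant of the pair per length, had 0.13 with acetate and 0.11 with ethanol.

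The 4 members called with all libraries are shown with the 250 bases before their RefSeq starts on GRCm38.p6, so that the letters upstream of each can be read. RefSeq promoters were used for 35 of the 43 members, and not for Xylt1, Chsy3, Csgalnact1, Slc26a2, Ext1, Extl3, Ndst1 and Sulf1. Capitals mark matches, on either strand, to ACAAAG and CATTGT, letters found in SOX sites, ACGTG and GCGTG, the core of hypoxia response elements, CACGTG, an E-box that contains ACGTG, and GGGCGG, a GC box. A match on the other strand is shown as its reverse complement. Papss2 has 2 starts in RefSeq, and the table of gene levels does not tell them apart.
Papss2, upstream start, chr19:32595465-32595714, plus strand: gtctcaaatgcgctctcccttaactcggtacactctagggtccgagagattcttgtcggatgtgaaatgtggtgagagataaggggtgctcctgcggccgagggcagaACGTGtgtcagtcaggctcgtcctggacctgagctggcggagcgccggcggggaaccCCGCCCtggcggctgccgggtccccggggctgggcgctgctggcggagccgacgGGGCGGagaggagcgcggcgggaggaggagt
Papss2, downstream start, chr19:32619755-32620004, plus strand: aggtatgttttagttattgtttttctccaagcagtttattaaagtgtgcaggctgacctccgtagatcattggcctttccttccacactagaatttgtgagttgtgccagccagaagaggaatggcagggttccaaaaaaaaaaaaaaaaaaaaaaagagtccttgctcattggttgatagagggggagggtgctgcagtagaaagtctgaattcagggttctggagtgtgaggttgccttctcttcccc
Chst13, chr6:90325186-90325435, minus strand: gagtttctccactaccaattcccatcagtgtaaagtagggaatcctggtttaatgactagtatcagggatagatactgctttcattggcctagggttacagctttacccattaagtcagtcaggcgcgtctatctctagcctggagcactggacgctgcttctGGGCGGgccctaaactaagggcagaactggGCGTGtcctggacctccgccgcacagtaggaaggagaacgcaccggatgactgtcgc
Chst3, chr10:60219261-60219510, minus strand: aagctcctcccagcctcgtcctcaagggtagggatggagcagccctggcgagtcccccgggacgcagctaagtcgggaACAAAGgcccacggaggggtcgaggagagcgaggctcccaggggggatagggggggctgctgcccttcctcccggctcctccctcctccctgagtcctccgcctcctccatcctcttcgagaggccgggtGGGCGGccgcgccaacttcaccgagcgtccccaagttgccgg
Hs6st1, chr1:36068150-36068399, plus strand: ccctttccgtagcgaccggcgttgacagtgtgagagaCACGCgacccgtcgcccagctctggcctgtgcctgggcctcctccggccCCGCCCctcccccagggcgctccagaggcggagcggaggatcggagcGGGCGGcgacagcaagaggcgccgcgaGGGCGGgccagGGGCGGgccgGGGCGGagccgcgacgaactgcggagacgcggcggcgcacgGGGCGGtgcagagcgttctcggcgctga

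The upstream Papss2 window held 1 ACGTG and 2 GGGCGG matches, and the downstream window, with a GC content of 43.2%, held none of the 6 motifs. The Chst3 window held 1 ACAAAG, the sole ACAAAG match in the windows of the 35 members, and 1 GGGCGG. Chst13 held 1 GCGTG and 1 GGGCGG, and Hs6st1 held 1 GCGTG and 6 GGGCGG in a window of 76.4% GC. Of the 44 windows of the 35 members, 63.6% held GGGCGG, 52.3% GCGTG, 22.7% ACGTG, 9.09% CACGTG, 4.55% CATTGT and 2.27% ACAAAG. Over all 32851 windows in the table, 32.7% held GGGCGG, 28.2% GCGTG, 16.6% ACGTG, 6.02% CACGTG, 10.7% CATTGT and 16.5% ACAAAG. These are matches of letters and not sites, and base composition was not matched between the members and the other windows.

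Within acetate, replicate 2 differed from the others along the GC content of the members. Over the 41 tested members, with GC contents of 40.8% to 63.5% and a median of 51.3%, its log2 deviation from the mean of acetate replicates 1 and 3 had a Pearson r of 0.87 with GC content, given as a description since all points share 1 library. The 8 members poorest in GC had a median deviation of -0.63 and the 8 richest of 0.51. Only Dsel (-1.81) and Csgalnact2 (-1.42) deviated by more than 2 times. The log2 fold changes of the members had a Pearson r with GC content of 0.55 for acetate against control and 0.68 for acetate against ethanol, and of -0.0072 for ethanol against control (41 members each). Papss2, with 47.5% GC, deviated by -0.55, and Chst13, with 59.0%, by 0.66, each in the direction of its acetate fold change.

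**Figure D5:**
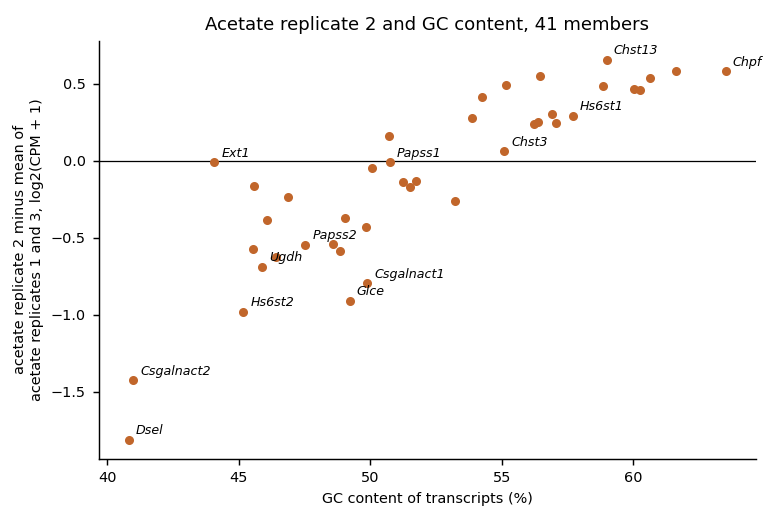
Deviation of acetate replicate 2 from the mean of acetate replicates 1 and 3, in log2 of CPM plus 1, against the GC content of transcripts in percent, for the 41 tested members (1 point each). The deviation climbs with GC content, with Dsel at -1.81 and Csgalnact2 at -1.42 at the low end.

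Genes around the module were counted on lists drawn up for the same chains. Among all genes tested, 0.505% were called higher and 0.497% lower with acetate, and 1.48% and 2.45% with ethanol. Between the treatments, 2.84% were called higher in acetate and 0.886% lower. Of 14 further donor supply genes tested, 13 had negative fold changes with either treatment, and 2 fell with ethanol. They were Gfpt2 (-0.65 ± 0.12, adjusted p = 0.0210), an enzyme that opens the route to amino sugars, and Slc35a2 (-0.69 ± 0.14, adjusted p = 0.0273), the Golgi carrier of UDP-galactose. The medians of this list were -0.45 with acetate, where limma called 0 (7 at an unadjusted p under 0.05), and -0.28 with ethanol. Of 6 keratan sulfate genes, Chst1, which sulfates the galactose of keratan, was called higher with acetate against control (0.98 ± 0.17, adjusted p = 0.0314) and against ethanol (0.95 ± 0.17, adjusted p = 0.0150). Chst1 had 6.02, 9.48 and 5.69 CPM in acetate, 3.12, 3.20 and 2.95 CPM in ethanol and 2.89, 2.92 and 3.17 CPM in control replicates, so that acetate lay above both other groups. Of 6 hyaluronan genes, 1 rose with ethanol, Cemip, which codes for a hyaluronan-degrading protein (0.73 ± 0.16, adjusted p = 0.0384).

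Of 15 genes for lysosomal breakdown, Hpse, the heparanase that cuts heparan chains, fell to 7.37 ± 0.229 CPM in ethanol libraries, against 11.9 ± 0.708 CPM in control libraries (-0.63 ± 0.11, adjusted p = 0.0152). It was also higher in acetate than in ethanol (0.73 ± 0.11, adjusted p = 0.00814). Of 19 tested core protein genes, 2 fell with acetate, Epyc (-1.73 ± 0.23) and Col9a2 (-2.33 ± 0.26), beside 0.497% of all genes. With ethanol 4 fell, Col9a2, Dcn (-1.76 ± 0.25), Epyc and Acan (-0.92 ± 0.18), beside 2.45% of all genes. Epyc was low throughout, at 0.711, 0.175 and 0.217 CPM in acetate, 1.19, 0.289 and 0.461 CPM in ethanol and 4.22, 3.40 and 2.87 CPM in control replicates. Sdc3, a heparan sulfate proteoglycan gene, was higher in acetate than in ethanol (0.69 ± 0.15, adjusted p = 0.0339). With acetate replicate 2 left out, 3 of 14 donor supply, 3 of 19 core protein and 1 of 6 hyaluronan genes were called lower with acetate, beside 1.53% of all genes. In that fit 6 of 14 donor supply, 7 of 15 breakdown and 8 of 19 core protein genes were called lower with ethanol, beside 11.3% of all genes. The genes called higher there were 1 of 6 keratan sulfate genes in each comparison and 1 of 6 hyaluronan genes with ethanol, beside 1.95% and 10.2% of all genes. Neither of the 2 further heparan enzyme genes tested, of 9 in the table, was called in any comparison.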

How the data were processed

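Messenger RNA of 9 ATDC5 libraries (3 acetate, 3 ethanol, 3 control, grouped by the treatment label) was sequenced from a stranded kit, per the labels' protocols. The authors deposited 1 table of log2 values of TMM-normalised counts per the file name. The submitters' processing notes name Partek, Bowtie2 2.2.5, STAR 2.7.8a and mm10, without roles, and the annotation and counting step are not given in the sources used here. Each library's floor, as an offset of 1e-05 read would give, was subtracted, which left TMM-scaled CPM and library sizes of 28.7 to 41.9 M reads, with 1 read worth 0.0231 to 0.0348 CPM. In each library 85.6% to 87.2% of the values of 1 to 20 recovered reads came out whole (tolerance 0.02), so no count model was used.

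Genes averaging at least 1 CPM (12868) were fitted as log2(CPM + 1) in limma 3.58.1 (R 4.3.3), with 1 mean per group over all 9 libraries, a mean-variance trend and Benjamini-Hochberg adjustment over all genes tested at 0.05. On simulated data for acetate against control (12826 genes), 97 of 100 genes changed by 1 and 98 of 100 changed by 2 on the log2 scale were recovered, with 6 false calls. The simulated counts had the same dispersion for every gene and no GC trend, deviating library or pairing. These rates check the code and do not describe recovery in the deposited libraries. GENCODE M21 on GRCm38, the build of mm10, gave positions, exon lengths and GC content (24919 of 26202 genes matched by symbol, 416 by synonym, 867 not), and promoters from RefSeq GRCm38.p6. GC content was known for 99.0% of tested genes, and the GC trend was removed with lowess at a span of 0.3. Software was Python 3.11.15, pandas 2.3.3 and matplotlib 3.10.9.

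The members and lists were chosen with earlier results of these data known. Values in every library are given for members called in any comparison with all libraries, with the replicate block, without acetate replicate 2 or with the GC trend removed, and in every case for Xylt1, Chsy1, Csgalnact1, Chst3, Chst11, Slc26a2, Papss1, Papss2, Ext1 and Sulf1. Genes of other lists are named where called with all libraries, up to 4 per list and comparison. Replicate numbers come from the labels. Deviations from group means correlated over all genes at 0.55, 0.36 and 0.67 between same-numbered ethanol and control libraries. They correlated at 0.15, 0.25 and 0.61 between acetate and ethanol libraries and at 0.25, -0.10 and 0.41 between acetate and control libraries. Whether the numbers mark pairs was not settled, so the main fit leaves them out and the block is an alternative. Alternatives changed the pseudocount, the low-value filter, the scaling, the block, the GC trend or which libraries entered, 1 library being dropped at a time. The ranges of adjusted p leave out 1 alternative, described with the sensitivity of the results.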

Additional observations from a re-analysis of the deposited data

How the results depend on the processing

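Counts of members called depended on the libraries and on the model. The 27 gene results called in at least 1 of 4 fits were taken under 16 alternatives each: 326 of 432 stayed on their side of the threshold, 75 newly passed it, 31 lost it and none changed sign, which their choice by calls largely fixes. Over all 41 tested members, the fold change turned sign under at least 1 of these alternatives for 15 with acetate against control, 6 with ethanol against control and 18 between the treatments. In that order, 10, 0 and 10 members turned when acetate replicate 2 was left out, and 9, 1 and 7 when the GC trend was removed. For acetate against control, 2 members were called with all libraries, 1 with no filter on low values and 4 with median-of-ratios scaling. Of all genes, 1.00%, 0.537% and 1.14% were called in these fits. With the GC trend removed 8 members were called, beside 5.24%, and with 1 library left out 0 to 6, beside 0% to 3.48%. With only the 6 libraries compared, limma called 0 members in this comparison (9 at an unadjusted p under 0.05), beside 0.155% of all genes. For ethanol against control, 2 became 14 (34.1%, beside 26.8% of all genes) with only those libraries. They became 9 with the GC trend removed (beside 15.8%) and 0 to 11 with 1 library left out (beside 0.762% to 21.5%). For acetate against ethanol, 2 became 0 with only those libraries (7 at an unadjusted p under 0.05), beside 0.832% of all genes. They became 6 with the GC trend removed (beside 10.5%) and 0 to 4 with 1 library left out (beside 0.800% to 8.61%).

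Replicate number as a block gave 6 members for acetate against control, beside 2.28% of all genes. It added Csgalnact1 (adjusted p = 0.0179), Slc26a2 (0.0221), Ugdh (0.0409) and Slc35d1 (0.0339), whose ranges stand with the genes. In this comparison same-numbered libraries correlated at 0.25, -0.10 and 0.41, and whether the numbers mark pairs was not settled. The block gave 3 for ethanol against control and 5 for acetate against ethanol, and in these 2 comparisons changed no other call of a member than those given with the genes. The block with the GC trend removed gave 19 members for acetate and 16 for ethanol against control, and 16 between the treatments (46.3%, 39.0% and 39.0%), beside 18.2%, 37.3% and 30.6% of all genes. The block with acetate replicate 2 left out gave 18, 23 and 16 in the same order, beside 21.5%, 50.2% and 33.1% of all genes, but there limma found no variation of the spread between genes of like level and pooled 38604 degrees of freedom, so its p-values are too small and its range is not used. The median log2 fold change of the members ranged from -0.107 to -0.0244 for acetate against control, from -0.152 to -0.0657 for ethanol against control, and from -0.0543 to -0.00073 for acetate against ethanol with 1 library left out. For acetate against ethanol it was -0.0648 with the GC trend removed, with or without the block. The cause of these shifts was not tested. Genes near 1 CPM, such as Chst13, Sulf1 and Hs3st3b1, and Epyc among the core protein genes, rest on few reads.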
